A study of Homo sapiens with 6 samples.

Results

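The 10 circadian clock genes described here were PER1, PER2, PER3, CRY1, CRY2, BHLHE40, BHLHE41, NR1D1, NR1D2 and DBP. They were taken from the deposited gene table by exact gene name, and all 10 were among its 29435 rows. The table came from RNA-seq of cells labelled HepG2, a line established from a human liver tumour. Saikosaponin A, a triterpenoid saponin of Bupleurum root, was given at 20 µM for 4 h in 3 libraries, and DMSO, its vehicle, for 4 h in 3 libraries. No genetic change or second agent was named for either group. The labels number the libraries 1 to 3 in each group without stating if separate cultures were used, and the p-values below therefore reflect sample-to-sample spread alone, which may be technical. Both groups are a single time point, and the labels name no step that synchronised the clocks of the cells, so no phase or rhythm can be read from the values.

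The mammalian clock is a loop of transcription and feedback. CLOCK or NPAS2 pairs with BMAL1, the product of ARNTL, binds E-boxes and switches on the PER and CRY genes, whose proteins enter the nucleus and repress that same pair. BHLHE40 and BHLHE41 (DEC1 and DEC2) compete at E-boxes, the REV-ERB receptors encoded by NR1D1 and NR1D2 repress ARNTL, and DBP activates genes that carry D-boxes. In liver this loop times much of metabolism, and PER1 is also an immediate target of glucocorticoid and cAMP signals.

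The promoter bases of the members hold some of the letters that these factors are known to bind. For the 10 members, RefSeq (GRCh38.p14) gave 13 windows of the 250 bases before a transcription start, and each was searched on both strands for an E-box (CACGTG), an E′-box (CACGTT) and a D-box (TTATGTAA). These letters were present in 6.34%, 4.55% and 0.834% of the 35116 RefSeq windows of the same length. The E-box letters were in a window of 4 members, the E′-box letters in 4 others, and the D-box letters in 2. Counted by window, as the percentages are, these were 4, 4 and 2 of the 13. The sites below are shown because they and those of NR1D2, given after them, are all the matches in the windows. Each is 30 bases long on the gene's strand, with the matching letters in capitals (AACGTG and TTACATAA are matches on the opposite strand), and positions are on GRCh38.p14.
PER1 E-box, chr17:8152560-8152589, minus strand: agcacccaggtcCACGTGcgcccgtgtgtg
BHLHE40 E-box, chr3:4979187-4979216, plus strand: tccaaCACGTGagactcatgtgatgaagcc
BHLHE41 E-box, chr12:26125068-26125097, minus strand: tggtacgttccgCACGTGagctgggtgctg
PER2 E′-box, chr2:238288790-238288819, minus strand: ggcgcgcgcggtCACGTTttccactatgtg
CRY1 E′-box, chr12:107093621-107093650, minus strand: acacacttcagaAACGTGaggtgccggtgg
CRY2 E′-box, chr11:45847275-45847304, plus strand: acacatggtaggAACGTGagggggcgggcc
NR1D1 E′-box, chr17:40100740-40100769, minus strand: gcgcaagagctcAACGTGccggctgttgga
PER3 D-box, chr1:7784103-7784132, plus strand: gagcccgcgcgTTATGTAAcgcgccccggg

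NR1D2 was the only member with both kinds of element in 1 window, and the whole window is shown for that reason. In capitals it holds 1 D-box on the opposite strand and 2 E-boxes, which lie 155 and 105 bases before the start.
NR1D2 window, chr3:23945871-23946120, plus strand: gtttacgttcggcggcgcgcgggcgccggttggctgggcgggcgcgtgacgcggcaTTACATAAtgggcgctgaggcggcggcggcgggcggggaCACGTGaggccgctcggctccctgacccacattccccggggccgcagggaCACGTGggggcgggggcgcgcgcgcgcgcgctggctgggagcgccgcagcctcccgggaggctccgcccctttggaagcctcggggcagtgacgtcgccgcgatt
The single window of DBP held none of the 3 elements. A cAMP response element (TGACGTCA, in 1.65% of all windows) and the ROR response element (in 0.47%) were found in a window of 0 members. A match is a string of letters and not evidence of binding, and a missing match says only that the letters are not in that window.

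Library totals ran from 58955482 to 69567633 counts with saikosaponin A and from 57768359 to 74912492 with DMSO. Saikosaponin A library 1 and DMSO library 3 stood apart, with 18.8% and 14.9% of counts from mitochondrially encoded genes, against 6.19% to 8.28% in the other 4. Of 9 hepatocyte markers with a row, 8 averaged under 0.1 FPKM in both groups, and the 9 summed to 0.977 to 1.34 CPM with saikosaponin A and 0.900 to 1.43 CPM with DMSO. These defining markers were thus at or near 0, against the liver origin that the label gives. The epithelial markers, mainly KRT8 and KRT18, summed to 3420 to 4253 CPM with saikosaponin A and 2838 to 3653 CPM with DMSO. Fibroblast markers summed to 241 to 286 CPM with saikosaponin A and 297 to 367 CPM with DMSO, endothelial markers to 3.42 to 3.79 CPM with saikosaponin A and 6.40 to 6.69 CPM with DMSO, and leukocyte markers to 2.26 to 7.29 CPM with saikosaponin A and 3.26 to 11.1 CPM with DMSO. Only 9 of 15 listed hepatocyte markers had a row, as did 9 of 10 fibroblast and 5 of 7 epithelial markers. For endothelial markers it was 4 of 6 and for leukocyte markers 2 of 5. None of the markers with a row was at 0 in all 6 libraries. The part of marker shifts in the results below was not tested. In bulk RNA, fewer cells of a type and less RNA per cell cannot be told apart.

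After saikosaponin A, 5 of the 10 clock genes fell: PER1, PER2, CRY2, NR1D2 and BHLHE40. By edgeR 0 rose, also at an unadjusted p under 0.05 and with DESeq2 or limma. PER1 and PER2 stood at 43.1% and 41.7% of their DMSO levels, CRY2 at 55.0%, NR1D2 at 64.0% and BHLHE40 at 78.1%. CRY1, PER3, BHLHE41, NR1D1 and DBP did not pass the test. Values are CPM, counts scaled to a common library size with TMM factors, and the test is the two-sided quasi-likelihood F-test of edgeR, called at a Benjamini-Hochberg adjusted p below 0.05. In the fit on the 11427 rows that reached 1 FPKM in 3 or more libraries, 3 of the 6 members present fell, where 27.9% of all rows fell. The other 4 members (PER2, PER3, CRY2, BHLHE41) were under that filter and are taken from a fit on all rows with enough counts by edgeR's filterByExpr (17831 rows). There 5 of 10 members fell, where 19.3% of all rows fell, and 0 rose, where 19.2% of all rows rose. The groups did not overlap for 5 of 10 members, all lower, where 29.4% of all rows were lower without overlap. The median log2 fold change was -0.57 for the 10 members in that fit, and 0.01 for all its rows.

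**Figure D1:**
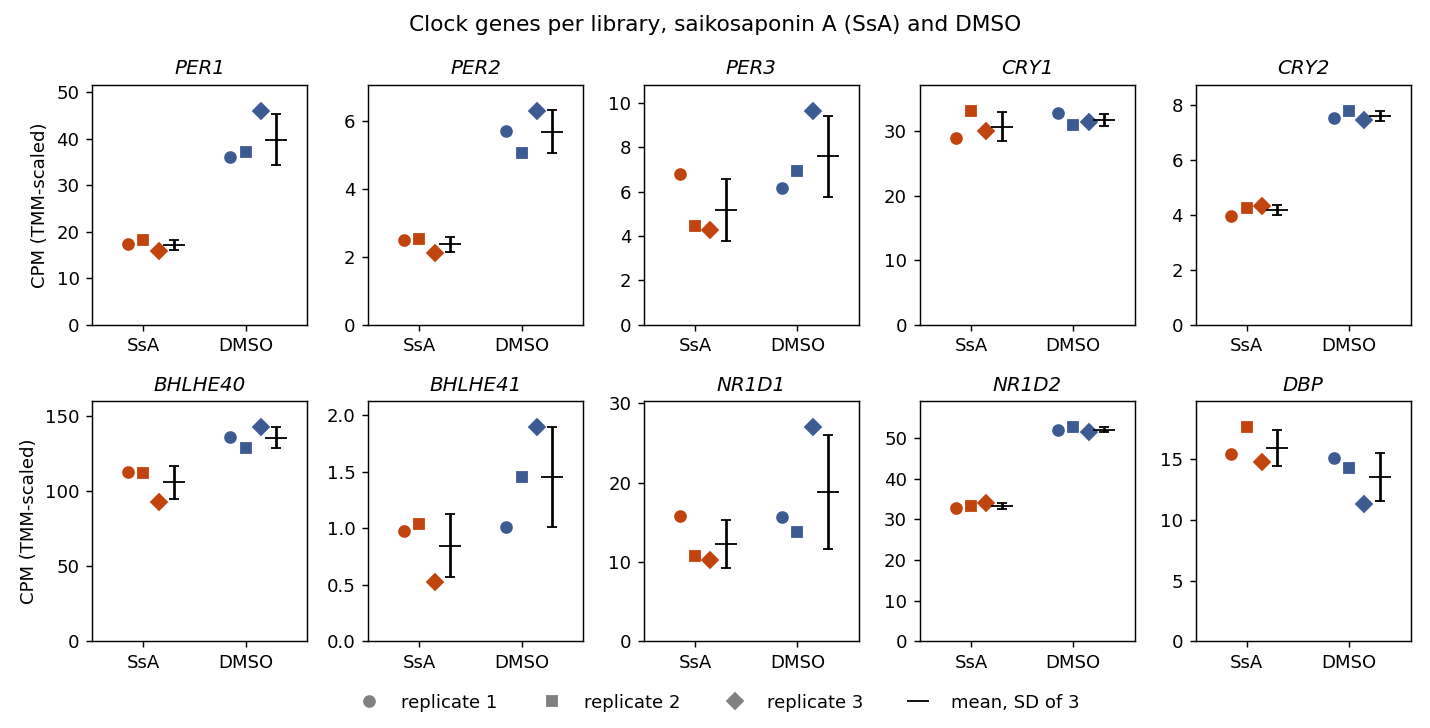
CPM of the 10 clock genes in each library, with saikosaponin A (SsA) left and DMSO right in each panel; marker shapes give the replicate number and black bars the mean and SD of 3 libraries. The groups do not overlap for PER1, PER2, CRY2, BHLHE40 and NR1D2, and overlap for the other 5.

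Log2 fold changes in these libraries ran lower with longer transcripts: their median over tested protein-coding genes was 0.48 for the 2510 genes with the shortest transcripts (up to 2359 nucleotides) and -0.50 for the 2510 with the longest (5343 or more), and several members have long transcripts. Each member is therefore also given after a correction that removes, in each library, a smooth trend of counts on the length of the gene's longest GENCODE 29 transcript. After it, 5 of 10 members were still called lower, against 11.3% of all rows, and in the fit with the FPKM filter 3 of 6, against 15.3%. DBP was then called higher, with 13.4% of all rows, which turned on the transcript chosen. The corrected median was -0.49 for the 10 members and 0.01 for all rows. What the trend comes from was not tested.

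**Figure D2:**
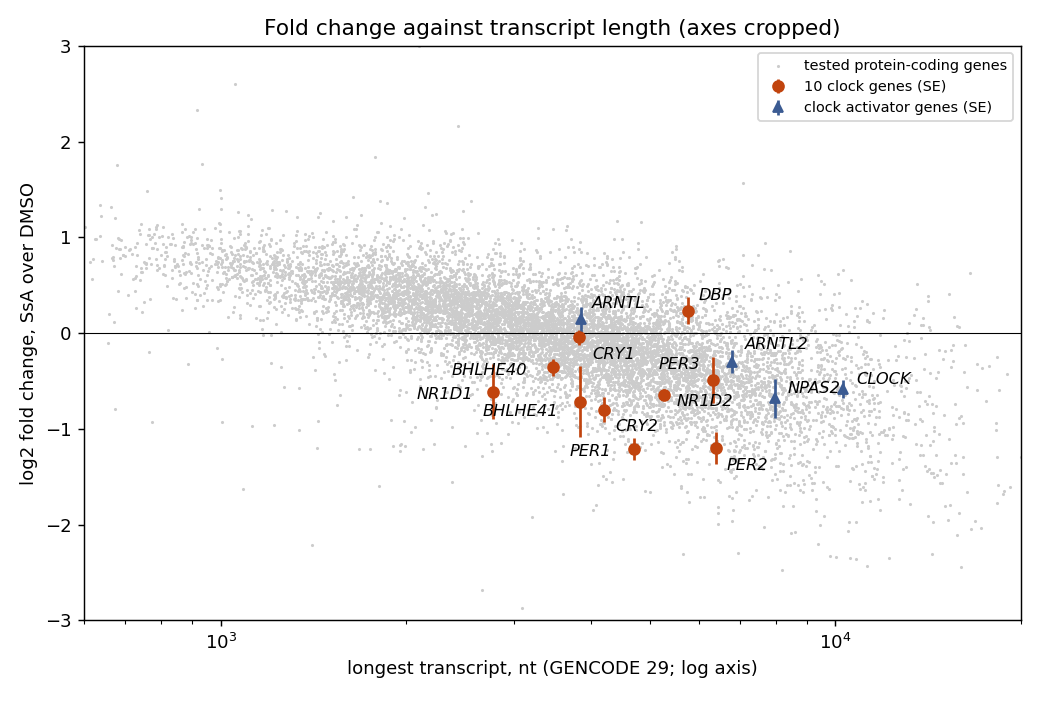
Log2 fold change of saikosaponin A over DMSO against the longest transcript in nucleotides (log axis) for tested protein-coding genes (grey), the 10 clock genes (orange circles) and the 4 activator genes (blue triangles), with standard errors. PER1, with a transcript of 4707 nucleotides, lies at -1.21 (-0.99 after length correction), and CLOCK, with 10304, lies at -0.59 (0.11 after it).

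PER1 (chr17:8140472-8156405, minus strand, GRCh38) encodes a period protein that, with a cryptochrome, represses CLOCK and BMAL1. It had 17.3, 18.2 and 15.9 CPM in the saikosaponin A libraries, against 36.0, 37.0 and 46.0 CPM in the DMSO libraries. Every saikosaponin A library was below every DMSO library, by a wide margin. PER1 averaged 17.1 ± 1.15 CPM with saikosaponin A and 39.7 ± 5.48 CPM with DMSO (SD, n = 3 each), a log2 fold change of -1.21 ± 0.12 (SE), or 2.32-fold lower, with an edgeR adjusted p of 0.000306. Corrected for length the log2 fold change was -0.99, with an edgeR adjusted p of 0.000995. PER1 and PER2 had the lowest log2 fold changes of the 10 members. In the fit on filterByExpr rows, which holds all 10, PER2 was at -1.20 and PER1 at -1.15.

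PER2 (chr2:238244044-238290102, minus strand), the second period gene, whose protein is a core subunit of the repressor complex, was scarcer, with 130 to 170 counts per library under saikosaponin A and 353 to 444 under DMSO. Its levels were 2.49, 2.51 and 2.11 CPM with saikosaponin A, against 5.70, 5.04 and 6.30 CPM with DMSO. The groups were again apart. On the log2 scale the fold change was -1.20 ± 0.17 (SE), with an edgeR adjusted p of 0.00163, and -0.83 after length correction, with an adjusted p of 0.0102.

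PER3 (chr1:7784320-7845177, plus strand), a period gene whose protein is dispensable for the loop in mice, had 6.80, 4.44 and 4.30 CPM with saikosaponin A, against 6.19, 6.95 and 9.66 CPM with DMSO. The groups overlapped, and the high library of each group was the one of high mitochondrial share. The log2 fold change was -0.49 ± 0.24 (SE), with an edgeR adjusted p of 0.150, and -0.13 after length correction. Without saikosaponin A library 1 it was -0.73 with an adjusted p of 0.0389, and with both libraries of high mitochondrial share left out it was -0.55 with an adjusted p of 0.0241. PER3 shares 868 exonic bases with UTS2 on the opposite strand, which has no row in the deposited data.

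CRY1 (chr12:106991364-107093549, minus strand), the cryptochrome that holds the repressor complex on DNA late in the cycle, had 29, 33.2 and 30.0 CPM with saikosaponin A, against 32.8, 31.0 and 31.4 CPM with DMSO. The libraries interleaved. Its log2 fold change was -0.04 ± 0.08 (SE), with an edgeR adjusted p of 0.644, and its sign turned to 0.03 with length correction and to 0.02 on the filterByExpr rows.

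CRY2 (chr11:45847118-45883247, plus strand), the other cryptochrome, had 3.95, 4.25 and 4.30 CPM with saikosaponin A, against 7.51, 7.78 and 7.43 CPM with DMSO. Within each group the 3 libraries lay close together, and the groups were far apart. This gave a log2 fold change of -0.80 ± 0.13 (SE), with an edgeR adjusted p of 0.00285, and -0.69 after length correction, with an adjusted p of 0.00900.

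The paralogs could also be compared inside each library, where library scaling cancels. The FPKM ratio of CRY1 to CRY2 was 9.55, 10.2 and 9.14 with saikosaponin A, against 5.69, 5.19 and 5.54 with DMSO. Every saikosaponin A library was above every DMSO library, and the ratio was 1.76-fold higher. The ratio of PER1 to PER2 was 6.82, 7.11 and 7.40 with saikosaponin A, against 6.22, 7.24 and 7.18 with DMSO, so the groups overlapped. The ratio of PER1 to PER3 was 2.97, 4.76 and 4.28 with saikosaponin A, against 6.77, 6.18 and 5.54 with DMSO, lower in all 3. The ratio of PER2 to PER3 was also lower in all 3 saikosaponin A libraries, 0.435 to 0.670, against 0.772 to 1.09 with DMSO. With 3 libraries against 3 the exact permutation test (two-sided) cannot go below 0.1. The ratios CRY1 to CRY2, PER1 to PER3 and PER2 to PER3 each gave that smallest p of 0.1, or 0.2 after Benjamini-Hochberg adjustment over the 6 pairs. PER1 to PER2 gave an exact permutation p of 0.7, BHLHE40 to BHLHE41 0.3 and NR1D1 to NR1D2 0.8. These ratios are not corrected for transcript length.

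**Figure D3:**
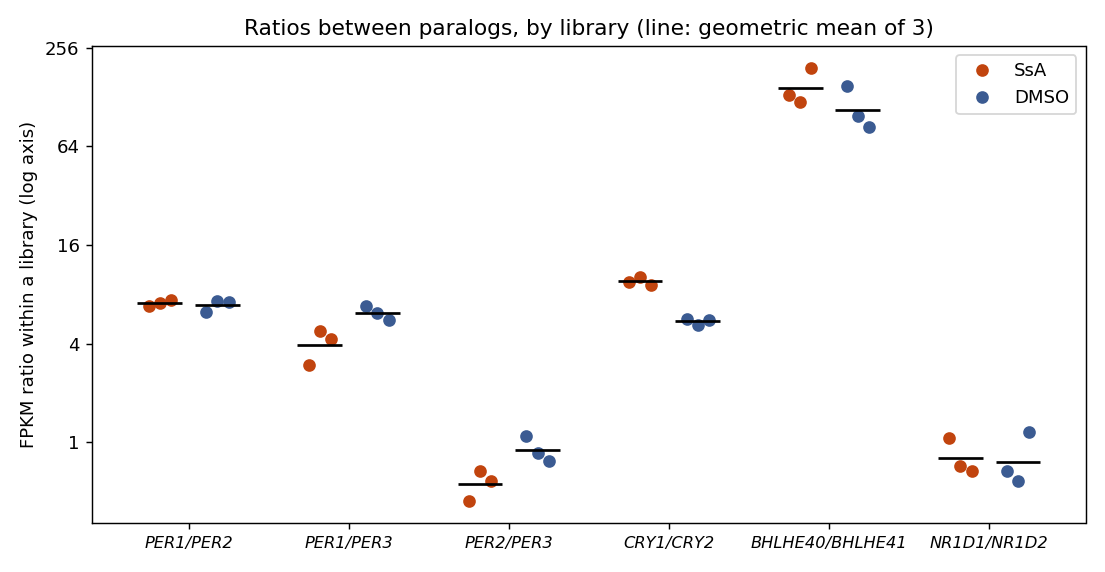
FPKM ratio between paralogs in each library on a log axis, saikosaponin A (SsA, orange) left of DMSO (blue) for each pair, with a line at the geometric mean of 3 libraries. CRY1/CRY2 lies at 9.14 to 10.2 with saikosaponin A and 5.19 to 5.69 with DMSO, while the groups of PER1/PER2 overlap.

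BHLHE40 (chr3:4979437-4985323, plus strand), the E-box repressor DEC1, was the most abundant member. It had 113, 112 and 93.2 CPM with saikosaponin A, against 136, 129 and 143 CPM with DMSO. All saikosaponin A libraries were below all DMSO libraries. The log2 fold change was -0.36 ± 0.09 (SE), with an edgeR adjusted p of 0.0145, and -0.35 after length correction, with an adjusted p of 0.0263. On the log2(TPM + 1) scale with limma its adjusted p was 0.0599. On the filterByExpr rows its edgeR adjusted p was 0.0355, and there it lost its call with 5 of the 6 libraries left out in turn and, at 0.0776, with length correction by the longest protein-coding transcript.

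BHLHE41 (chr12:26120030-26125037, minus strand), the related repressor DEC2, was the scarcest member, with 33 to 70 counts per library under saikosaponin A and 79 to 117 under DMSO. It had 0.977, 1.03 and 0.527 CPM with saikosaponin A, against 1.01, 1.45 and 1.89 CPM with DMSO. The groups overlapped at their edges, and the log2 fold change of -0.72 ± 0.37 (SE) had an edgeR adjusted p of 0.168. It was -0.47 without saikosaponin A library 3. BHLHE41 shares 162 exonic bases with SSPN on the opposite strand, which has no row either. At this depth a change of that size was not distinguishable from the spread.

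NR1D1 (chr17:40092793-40100589, minus strand) encodes REV-ERB alpha, the haem-binding repressor of ARNTL. It had 15.8, 10.8 and 10.3 CPM with saikosaponin A, against 15.6, 13.8 and 27.0 CPM with DMSO. In both groups the library of high mitochondrial share was the highest, and the groups overlapped. The log2 fold change was -0.61 ± 0.29 (SE), with an edgeR adjusted p of 0.109. It was -0.28 without DMSO library 3, and -0.51 with an adjusted p of 0.00515 in the 4 libraries of low mitochondrial share. NR1D1 shares 263 exonic bases with THRA on the opposite strand. THRA had 3713 to 4299 counts with saikosaponin A and 5291 to 6759 with DMSO, and no source used here states whether reads were counted by strand, so the NR1D1 count is uncertain.

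NR1D2 (chr3:23945286-23980617, plus strand), which encodes the second such receptor, REV-ERB beta, had the tightest values of all members for its level. They were 32.7, 33.2 and 34.0 CPM with saikosaponin A, against 51.9, 52.7 and 51.5 CPM with DMSO. The 2 libraries of high mitochondrial share lay close to the rest of their group here, with ratios to the mean of the other 2 of 0.974 for saikosaponin A library 1 and 0.984 for DMSO library 3. Here the log2 fold change was -0.64 ± 0.06 (SE), with an edgeR adjusted p of 0.000282, and -0.35 after length correction, with an adjusted p of 0.00600. On the rows past the FPKM filter NR1D2 held its call under all 20 alternative settings, but on the filterByExpr rows length correction with the replicate number as a block gave an adjusted p of 0.0666.

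DBP (chr19:48630030-48637379, minus strand), the D-box activator whose mRNA is among the most strongly rhythmic in liver, was the only member with a positive log2 fold change, CRY1 aside, whose sign depends on the setting. It had 15.4, 17.6 and 14.8 CPM with saikosaponin A, against 15.1, 14.2 and 11.3 CPM with DMSO. The groups overlapped slightly. The log2 fold change was 0.23 ± 0.14 (SE), with an edgeR adjusted p of 0.188, and 0.10 without DMSO library 3. With length correction it became 0.58 and was called higher (edgeR adjusted p of 0.0233, where 15.8% of all rows were called higher). That correction uses DBP's longest transcript of 5756 nucleotides, which keeps introns. With the longest protein-coding transcript, 2229 nucleotides, the log2 fold change was -0.0023 with an adjusted p of 0.991, and on the TPM scale it was -0.11. DBP shares 661 exonic bases with SPHK2 on the opposite strand, which had 529 to 724 counts with saikosaponin A and 646 to 1141 with DMSO, so its count is uncertain too.

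**Figure D4:**
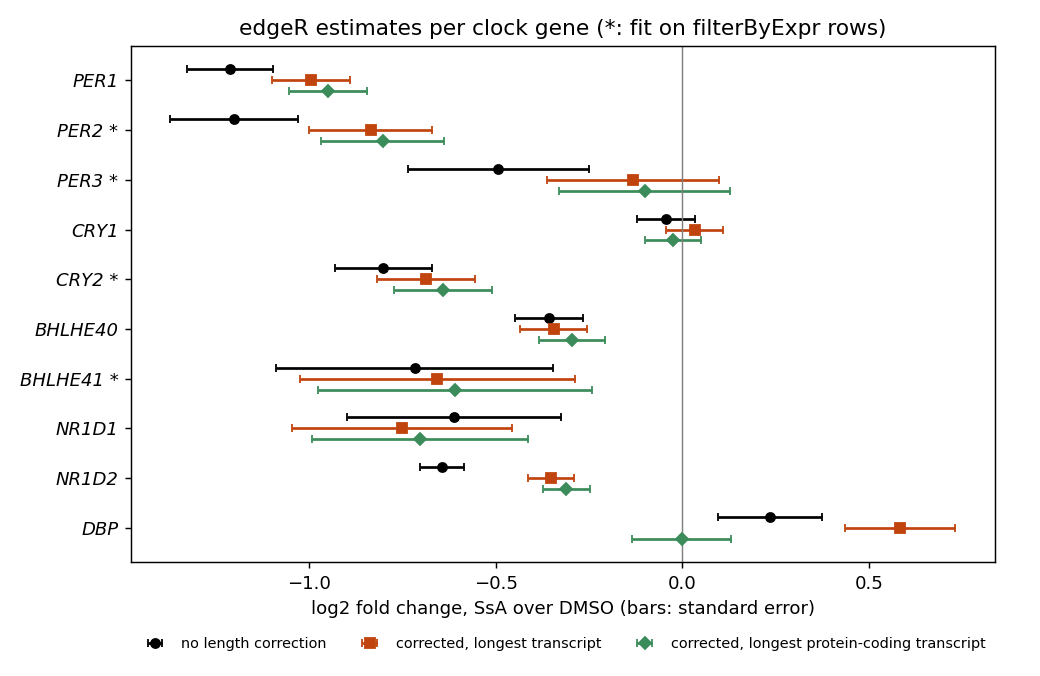
Log2 fold change of saikosaponin A over DMSO per clock gene with its standard error: without length correction (black circles), corrected by the longest transcript (orange squares) and by the longest protein-coding transcript (green diamonds); stars mark genes from the fit on filterByExpr rows. PER1, PER2, CRY2, BHLHE40 and NR1D2 stay below 0 in all 3, and DBP moves between 0.58 and 0.

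The order of levels, per length on the deposited FPKM scale, differed little between groups at its ends. With saikosaponin A the mean levels were BHLHE40 24.4, CRY1 5.22, NR1D2 4.66, NR1D1 3.75, DBP 1.99, PER1 1.97, CRY2 0.541, PER3 0.507, PER2 0.278 and BHLHE41 0.174 FPKM. With DMSO they were BHLHE40 35.0, NR1D2 8.16, NR1D1 6.36, CRY1 6.03, PER1 5.10, DBP 1.91, CRY2 1.10, PER3 0.836, PER2 0.744 and BHLHE41 0.333 FPKM. Neighbours whose ranges overlapped with saikosaponin A were CRY1 and NR1D2, NR1D2 and NR1D1, DBP and PER1, and CRY2 and PER3. With DMSO they were NR1D2 and NR1D1, NR1D1 and CRY1, and PER3 and PER2. PER1 thus stood beside DBP with saikosaponin A and above it in every DMSO library. The FPKM lengths follow the sum of all annotated exons of a gene, which for DBP is 6544 nucleotides, against 2229 for its longest protein-coding transcript. Per kilobase of that transcript, DBP averaged 7.14 CPM with saikosaponin A and 6.07 with DMSO, and PER1 3.64 CPM with saikosaponin A and 8.43 with DMSO.

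The libraries that stood apart in mitochondrial share touched the members unequally. NR1D1 in saikosaponin A library 1 was 1.5 times the mean of the other 2, and in DMSO library 3 it was 1.83 times. For PER3 the ratios were 1.56 and 1.47, and for PER1 1.02 and 1.26. DBP was lower in both, at 0.951 and 0.771 times, while CRY1 and CRY2 lay between 0.917 and 0.986. With both of these libraries left out, the log2 fold changes of PER1, PER2, CRY2, NR1D2 and BHLHE40 were -1.13, -1.18, -0.80, -0.67 and -0.39. All 5 were called lower by edgeR, with PER3 and NR1D1 in addition. Calls rose over the whole table too: 3946 rows past the FPKM filter were then lower and 3801 higher. With no library left out these were 3190 and 2956.

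The direction of the whole table depends on how libraries are scaled. TMM gave 3190 rows lower and 2956 higher. Total library size gave 3901 lower and 1237 higher, limma on log2(FPKM + 1) 3723 lower and 914 higher, and limma on log2(TPM + 1) 2446 lower and 49 higher. The median log2 fold change of all rows moved to -0.12, -0.11 and -0.31 on these 3 scales, against 0.03 with TMM. The median of the 6 members past the FPKM filter moved with it, to -0.63, -0.56 and -0.80, against -0.48 with TMM, a gap to all rows of -0.51, -0.45 and -0.49, against -0.51 with TMM. On each of these 3 scales NR1D1 was also called lower, with log2 fold changes of -0.75, -0.61 and -0.88. PER3, on the filterByExpr rows, was called lower on the same 3 scales, at -0.70, -0.29 and -0.63. On those rows NR1D1 was not called by limma on log2(FPKM + 1), with an adjusted p of 0.0525.

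For each called member past the FPKM filter, the 3 genes closest in pattern are named. Closeness was the root mean square distance of log2 CPM, centred on the DMSO mean, over the 6 libraries and 11427 genes. For PER1 the nearest were MTF1 (0.0568), ZNF800 (0.0573) and IQSEC1 (0.0576), and 31 genes lay within 0.1. For NR1D2 they were ARFGEF2, PLEKHG3 and NRDE2, with 305 genes within 0.1, and for BHLHE40 they were ATG13, CSNK1G3 and CASTOR3, with 272. PER1 thus had fewer close neighbours than NR1D2 and BHLHE40. The distance includes the size of the change from DMSO, which was larger for PER1. PER2 and CRY2, which are under the filter, were not measured.

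The activators of the loop were the 4 genes CLOCK, NPAS2, ARNTL and ARNTL2, whose proteins form the pair that PER and CRY repress. CLOCK averaged 26.7 ± 1.31 CPM with saikosaponin A and 40.2 ± 4.10 with DMSO (log2 fold change -0.59, edgeR adjusted p 0.00213). NPAS2, a CLOCK homolog, averaged 9.74 CPM with saikosaponin A and 15.6 with DMSO, a log2 fold change of -0.68 with an adjusted p of 0.0260. NPAS2 passed the FPKM filter through its DMSO libraries alone, and on the filterByExpr rows its adjusted p was 0.0377. ARNTL averaged 11.7 CPM with saikosaponin A and 10.5 with DMSO (log2 fold change 0.15, adjusted p 0.371). ARNTL2, its homolog, averaged 14.1 CPM with saikosaponin A and 17.3 with DMSO (log2 fold change -0.30, adjusted p 0.0781). Thus 2 of the 4 were called lower, where 27.9% of all rows were. After length correction edgeR called 0 of the 4, also at an unadjusted p under 0.05. Of all rows 15.3% were then lower and 15.8% higher, so 0 of 4 says little about these genes. The log2 fold changes were then 0.11 for CLOCK and -0.14 for NPAS2. By the longest protein-coding transcript NPAS2 was at -0.53, with an unadjusted edgeR p of 0.0312 and an adjusted p of 0.0888. CLOCK shares 76 exonic bases with TMEM165 on the opposite strand, and NPAS2 748 with an antisense gene.

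Of 7 ROR receptors and D-box partners, 2 were tested. TEF, a PAR bZIP activator related to DBP, averaged 5.02 CPM with saikosaponin A and 8.30 with DMSO, a log2 fold change of -0.73 with an edgeR adjusted p of 0.00784. It passed the filter through its DMSO libraries alone, and on the filterByExpr rows its adjusted p was 0.0113. After length correction it was -0.56 with an adjusted p of 0.0377, and -0.51 with an adjusted p of 0.0570 by the longest protein-coding transcript. NFIL3, a D-box repressor, averaged 12.3 CPM with saikosaponin A and 10.8 with DMSO (log2 fold change 0.19, adjusted p 0.239).

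Among 21 tested kinases, phosphatases and ubiquitin ligases that set PER and CRY stability, 2 rose and 8 fell, with a median log2 fold change of -0.19; of all rows 25.9% rose and 27.9% fell, with a median of 0.03. DYRK1A, a kinase of CRY2 in mice, fell by 0.71 on the log2 scale, GSK3B fell by 0.56 and CSNK1D, a PER kinase, fell by 0.37. PPP1CA, a phosphatase catalytic subunit, rose by 0.50 and PPP2CA by 0.25. The counts were 6 higher and 2 lower after length correction, where 15.8% of all rows were higher and 15.3% lower, and 13 of the 21 calls differed. DYRK1A was then higher, at 0.28, and GSK3B and CSNK1D were not called (CSNK1D was, at -0.26, by the longest protein-coding transcript), so no direction holds for this list. CSNK1D and PPP1CA share exonic bases with genes on the opposite strand, and PPP2CA shares 312 with a gene on its own.

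Of 20 cofactors and chromatin partners of the clock, 2 rose and 9 fell, where 25.9% of all rows rose and 27.9% fell. After length correction 1 was higher and 4 lower, where 15.8% of all rows were higher and 15.3% lower. KMT2A, an H3K4 methyltransferase, averaged 41.3 ± 12.6 CPM with saikosaponin A and 170 ± 26.3 with DMSO (SD, n = 3 each), a log2 fold change of -2.05. It shares 5599 exonic bases with another gene on its own strand, so its count is uncertain. CREBBP, a histone acetyltransferase, fell by 1.98, with means of 31.3 CPM with saikosaponin A and 123 with DMSO. THRAP3, a CLOCK-associated protein, fell by 0.53. All 3 kept their direction and call with length correction, at -1.08, -1.25 and -0.36. KDM5A, a histone demethylase that associates with CLOCK and BMAL1, fell by 0.69 but was 0.04 after it. HDAC3, the deacetylase that REV-ERBs recruit, and TIPIN, the partner of TIMELESS, rose by 0.25 and 0.24. They were -0.10 and -0.16 after length correction and not called. TIPIN shares 579 exonic bases with a processed pseudogene on its own strand. HDAC3 shares 426 with an antisense gene, so both counts are uncertain.

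Of 16 tested outputs of the clock, 5 rose and 4 fell, close to the 25.9% and 27.9% of all rows. After length correction 4 were higher and 2 lower, where 15.8% of all rows were higher and 15.3% lower. TSC22D3, a glucocorticoid-induced leucine zipper gene, averaged 150 CPM with saikosaponin A and 88.9 with DMSO, a log2 fold change of 0.75, and 0.48 after length correction. TSPAN4 rose by 0.61, and with length correction by the longest protein-coding transcript it was 0.15 with an adjusted p of 0.157. NOCT, a rhythmic phosphatase gene, fell by 0.64 and was -1.0 after length correction. PPARA, a nuclear receptor of fatty acid use, averaged 9.73 CPM with saikosaponin A and 19.5 with DMSO, a log2 fold change of -1.0. PPARA passed the filter through its DMSO libraries alone, its adjusted p on the filterByExpr rows was 0.00406, and it was -0.32 and not called after length correction. DTX4 fell by 0.54 and WEE1, a cell cycle kinase gene, by 0.35, and neither was called after length correction (WEE1 was, at -0.29, by the longest protein-coding transcript).

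Of 12 tested genes of CREB and CRTC signalling, which induces PER1 in many cells, 1 rose and 4 fell, where 25.9% of all rows rose and 27.9% fell. After length correction 1 was higher and 2 lower, where 15.8% of all rows were higher and 15.3% lower. SIK3, a kinase that restrains CRTCs, averaged 20.9 CPM with saikosaponin A and 47.6 with DMSO, a log2 fold change of -1.19, and -0.78 after length correction. CRTC3, a CREB coactivator, fell by 0.76 and was -0.48 after it. SIK2 fell by 0.80 and SIK1 by 0.40, and neither was called after length correction. SIK1 has a near-identical copy, SIK1B, so its count is uncertain. CREM, a member of the CREB family, rose by 0.48 and was 0.22 after length correction and not called.

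The 10 genes with a row in the list of the glucocorticoid receptor, whose targets include PER1, were all called: 7 rose and 3 fell, where 25.9% of all rows rose and 27.9% fell. Their median was 0.47, against 0.03 for all rows. This list, like the others, was chosen with earlier results of these data known, so its share called is not independent of them. After length correction 5 were higher by edgeR, where 15.8% of all rows were, and 0 were lower, which also held at an unadjusted p under 0.05. DUSP1, a phosphatase of MAP kinases, averaged 175 CPM with saikosaponin A and 94.9 with DMSO, a log2 fold change of 0.89, and 0.55 after length correction. SGK1, a kinase gene, rose by 0.54. MT2A, a metallothionein gene, rose by 0.53 and was -0.04 after length correction. NR3C1, the receptor itself, fell by 0.47, the cochaperone gene FKBP5 by 0.35 and KLF9 by 0.53, and these 3 were not called after length correction. PER1 itself lay below its DMSO level under every one of the 20 alternatives.

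**Figure D5:**
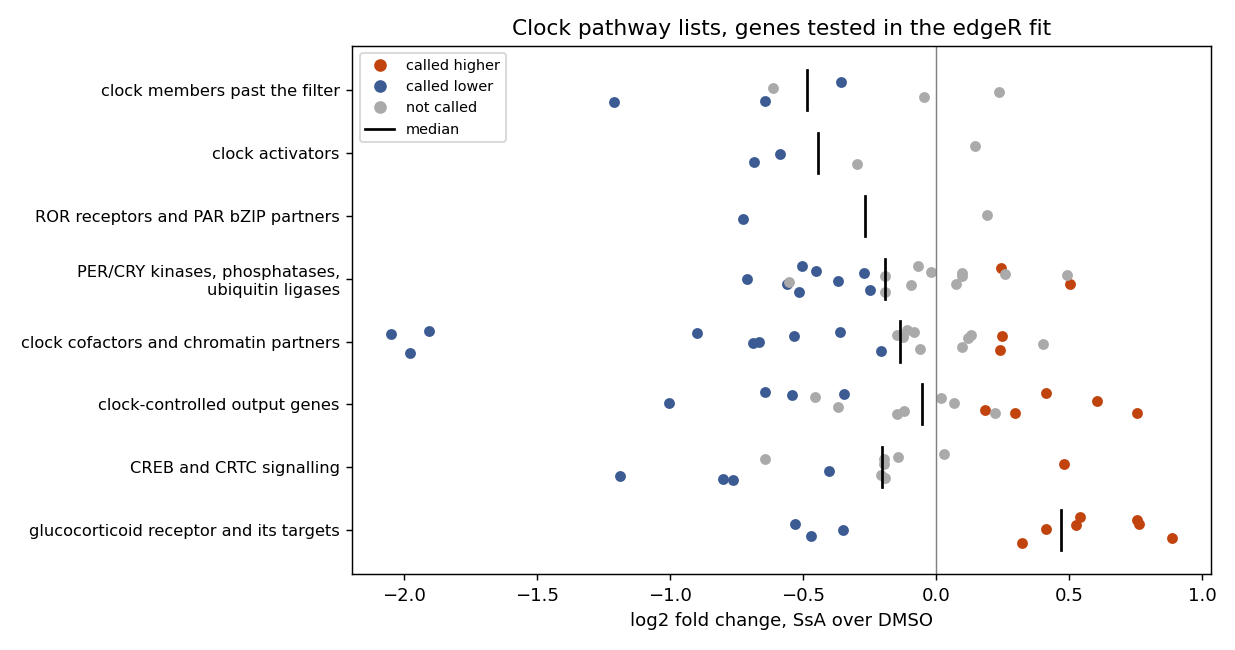
Log2 fold change of saikosaponin A over DMSO for each gene tested in the fit with the FPKM filter, by list, coloured by call, with the median as a black line; points are spread vertically for clarity. The clock members have a median of -0.48 and the glucocorticoid list a median of 0.47.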

How the data were processed

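Polyadenylated RNA was fragmented and made into dUTP strand-marked libraries, per the labels' protocols. The submitters' processing notes name HISAT2 2.0.4, StringTie 1.3.4d, cutadapt 1.9 and the build GRCh38. No source used here gives their settings, the annotation release, the use of strand or the counting step. The table as deposited holds whole-number counts per gene, taken as not normalised by the authors, and FPKM values that the authors scaled by gene length and library size, per the file headers.

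Here, the 11427 rows that reached 1 FPKM in 3 or more of 6 libraries were TMM-scaled, and edgeR 4.0.16 tested them (quasi-likelihood, two-sided, Benjamini-Hochberg over all rows, threshold 0.05; R 4.3.3). Standard errors are |log2 fold change|/√F. The 4 members under the filter come from the same test on 17831 filterByExpr rows, a choice made after seeing the data; their CPM keep the first fit's library scaling. Length correction used loess offsets (span 0.5) on the longest GENCODE 29 transcript. Paralog FPKM ratios had exact permutation tests. DESeq2 1.42.0 and limma 3.58.1 (pseudocounts 1 and 0.1; on FPKM and on TPM rescaled from it) were alternatives. The edgeR test and the length correction were run on simulated counts with a linear trend on log2 length or none. Those counts held no libraries of high mitochondrial share, so they cannot vouch for the correction in these data.

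Named genes were all 10 members, the clock activators, up to 4 genes of smallest p in each other list plus any called gene against its list's majority, the 3 genes nearest in pattern to each called member, and genes overlapping a member. The members and lists were chosen with earlier results of these data known. Total counts of 57768359 to 74912492 per library limit precision most for BHLHE41, with as few as 33 counts. PCR reads without molecular identifiers are not independent molecules.

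The labels number the libraries without stating a pairing. The deviations of same-numbered libraries from their group means correlated at -0.34, 0.29 and -0.35. Saikosaponin A library 1 and DMSO library 3, both of high mitochondrial share, correlated at 0.55. With 3 libraries per group these correlations cannot decide whether libraries of the same number were paired. Exonic overlaps with other genes were counted in GENCODE 29, in which 28679 of 29435 rows matched. Promoter sequences are from RefSeq, GRCh38.p14.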

Additional observations from a re-analysis of the deposited data

How the results depend on the processing

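On rows past the FPKM filter PER1 and NR1D2 kept their direction and call under all 20 alternatives, and on filterByExpr rows CRY2 and PER2 under 18 of 19. Whether libraries of the same number were paired is not known. A fit with the replicate number as a block gave 2542 rows lower and 2074 higher. In it BHLHE40 was -0.36 with an edgeR adjusted p of 0.0505. Length correction with the block gave 948 rows lower and 917 higher, PER2 -0.83 (adjusted p 0.0555), CRY2 -0.69 (0.0506), BHLHE40 -0.35 (0.0861), DBP 0.59 (0.0484) and CRY1 0.031, and on filterByExpr rows called 1 of 10 members lower (PER1; NR1D2 had an adjusted p of 0.0666) and 1 higher. Saikosaponin A library 1 correlated best with DMSO library 3, not with its own number. Length correction alone gave 1737 rows lower and 1793 higher, CRY1 0.033 and DBP 0.58, the 1 member called higher. With the longest protein-coding transcript the counts were 1593 and 1548, and DBP was -0.0023. Total library size gave 1237 rows higher, PER3 -0.70 and NR1D1 -0.75. Limma on log2(FPKM + 1) gave 914 rows higher, PER3 -0.29 and NR1D1 -0.61, and with a pseudocount of 0.1 886, -0.63 and -0.72. Limma on log2(TPM + 1) gave 49 rows higher, PER3 -0.63, NR1D1 -0.88, BHLHE40 -0.72 and DBP -0.11. The 4 libraries of low mitochondrial share gave 3946 rows lower and 3801 higher, PER3 -0.55 and NR1D1 -0.51. With length correction there 2796 rows were lower and 3047 higher. NR1D1 was then -0.63, DBP 0.49, the 1 member called higher, and CRY1 0.058. CRY1 was 0.017 on filterByExpr rows and 0.011 without a filter. The cause of these differences was not tested.

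With 1 library left out, PER3 ranged from -0.73 to -0.30, the log2 FPKM ratio of PER1 to PER2 from -0.022 to 0.088 and that of NR1D1 to NR1D2 from -0.14 to 0.37. Rows called higher ranged from 2005 to 3153 and rows called lower from 2594 to 3249. On filterByExpr rows 4 to 6 of 10 members were called lower, and BHLHE40 lost its call there with 5 of 6 libraries left out in turn (adjusted p 0.0341 to 0.102). On the rows each is reported from, PER1 ranged from -1.28 to -1.11, PER2 from -1.28 to -1.12, CRY2 from -0.84 to -0.76, NR1D2 from -0.67 to -0.63, and BHLHE40 from -0.40 to -0.27 with edgeR adjusted p of 0.0146 to 0.0462. BHLHE41 ranged from -0.92 to -0.47, NR1D1 from -0.83 to -0.28 and DBP from 0.10 to 0.31, none of them called. Depth limits BHLHE41 most.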
